A study of Mus musculus with 6 samples.

Results

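The 9 genes described here make, carry, sense or clear retinoic acid in the mouse prostate. They were taken by symbol from the 24421 genes of each deposited table: the retinal dehydrogenase genes Aldh1a1, Aldh1a2 and Aldh1a3, the retinol dehydrogenase gene Rdh10, the binding protein gene Crabp2, the receptor genes Rara, Rarb and Rarg, and the clearing enzyme gene Cyp26b1. All 9 were found, and all 9 passed the filter on low values. RNA sequencing was done on 2 prostate samples from intact mice and 4 from castrated mice (labelled Cx), all carrying PB-Cre4 and a homozygous LoxP allele. In this model a probasin promoter drives Cre in prostate epithelium, so the deletion was shared by both groups and stromal cells keep the allele intact. The labels give neither the time since castration nor the age, and they do not say that samples came from separate animals, so any error or p-value covers the variation among the 6 samples alone, and that variation may be technical. Total reads ran from 43679297 to 59170793 per sample. The tissue label was checked on prostate and seminal vesicle genes. Hoxb13, a prostate lineage factor, was at 59.1 to 233 CPM, rescaled by library size factors (rescaled CPM), in all 6 samples. Of 6 seminal vesicle genes 3 had no read in any sample, and the summed level of the 6 was at most 0.161. In intact samples 1 and 2 the sum was 0.0233 and 0. No level of these genes in seminal vesicle after castration was at hand, so this part of the check bears on the intact samples alone.

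Retinoic acid is made from vitamin A in a pair of oxidation steps. A retinol dehydrogenase such as the Rdh10 protein makes retinal, and a retinal dehydrogenase of the Aldh1a family then makes retinoic acid. Inside the cell the acid is carried by binding proteins to nuclear receptors, which act as partners of the retinoid X receptors on response elements in DNA, and enzymes of the Cyp26 family degrade it. Retinoid signalling is known for its part in prostate development and in keeping glandular epithelium from turning squamous.

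The receptor gene Rarb is itself a classical target of the pathway, through a response element at its internal start. RefSeq promoter windows of GRCm38.p6, from 250 bases before to 50 bases after each start, were at hand for 6 of the 9 genes, with none for Aldh1a3, Rdh10 or Crabp2. They were searched on both strands for the DR5 retinoic acid response element, which is a direct repeat of receptor binding hexamers separated by 5 bases, for the same repeat separated by 2 bases, and for the androgen response element. The DR5 element was found in the Rarb window alone among those of the 6 genes, and in 0.0974% of all 32851 windows. The other searches matched no window of the 6 genes, against 0.268% and 0.119% of all windows. The match in Rarb lies 53 to 37 bases before the start, and is shown because this element is a textbook binding site of the receptors described here. The capitals mark the repeated hexamers in 30 bases of the minus strand at chr14:16575506-16575535, which an annotated longer Rarb transcript also covers as exon.
Rarb response element: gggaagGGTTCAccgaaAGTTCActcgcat

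The upstream sequence of Aldh1a1 is shown because this gene had the largest difference between the groups among the 9. RefSeq gives Aldh1a1 a pair of starts, and the downstream one has these bases before its first annotated exon on the plus strand at chr19:20601718-20601960. The capitals mark CCAAT, letters present on either strand in 33.9% of all 250-base upstream windows.
Aldh1a1 upstream: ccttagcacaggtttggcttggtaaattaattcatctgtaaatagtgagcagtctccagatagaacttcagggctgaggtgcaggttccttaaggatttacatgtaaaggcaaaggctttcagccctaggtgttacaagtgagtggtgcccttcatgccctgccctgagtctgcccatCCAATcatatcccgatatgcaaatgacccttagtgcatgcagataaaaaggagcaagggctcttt

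The main comparison asked how castration, which removes the main source of androgens, changed these transcripts. The 9 genes were chosen by name and function with the castrated against intact differences of these same samples already known, so their differences are given as a description, without p-values. Of the 9, Rdh10 was past the threshold of the fit over all genes as higher in castrated samples and Aldh1a1 as lower, and the other 7 were not past it. Over all 13898 tested genes 1.97% were past it, 0.698% higher and 1.27% lower, and nothing is read from the members' count. The groups did not overlap for 3 of the 9 (Aldh1a1, Rdh10 and Rara), against 26.6% of tested genes. The calls of both genes rest on few samples: without castrated sample 4 both were kept and Aldh1a2 was added, and without any other single sample none of the 9 was past the threshold. Counts over all genes also moved with single samples: 274 were past it with 6 samples, 1052 without castrated sample 4, 9 and 1 without intact samples 1 and 2, and 46 to 83 without another castrated sample. On recovered reads edgeR called Aldh1a1 alone of the 9, and DESeq2 called Aldh1a1 and Rdh10. DESeq2 calls here and below carry a limit: in simulated data 31.0% of them were false, against 8.06% in limma and 6.76% in edgeR. These shares hold for 200 changed genes per draw and are not error rates of the calls in these samples. In the bulk tissue measured here, fewer cells of a type and less RNA per cell cannot be told apart.

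**Figure D1:**
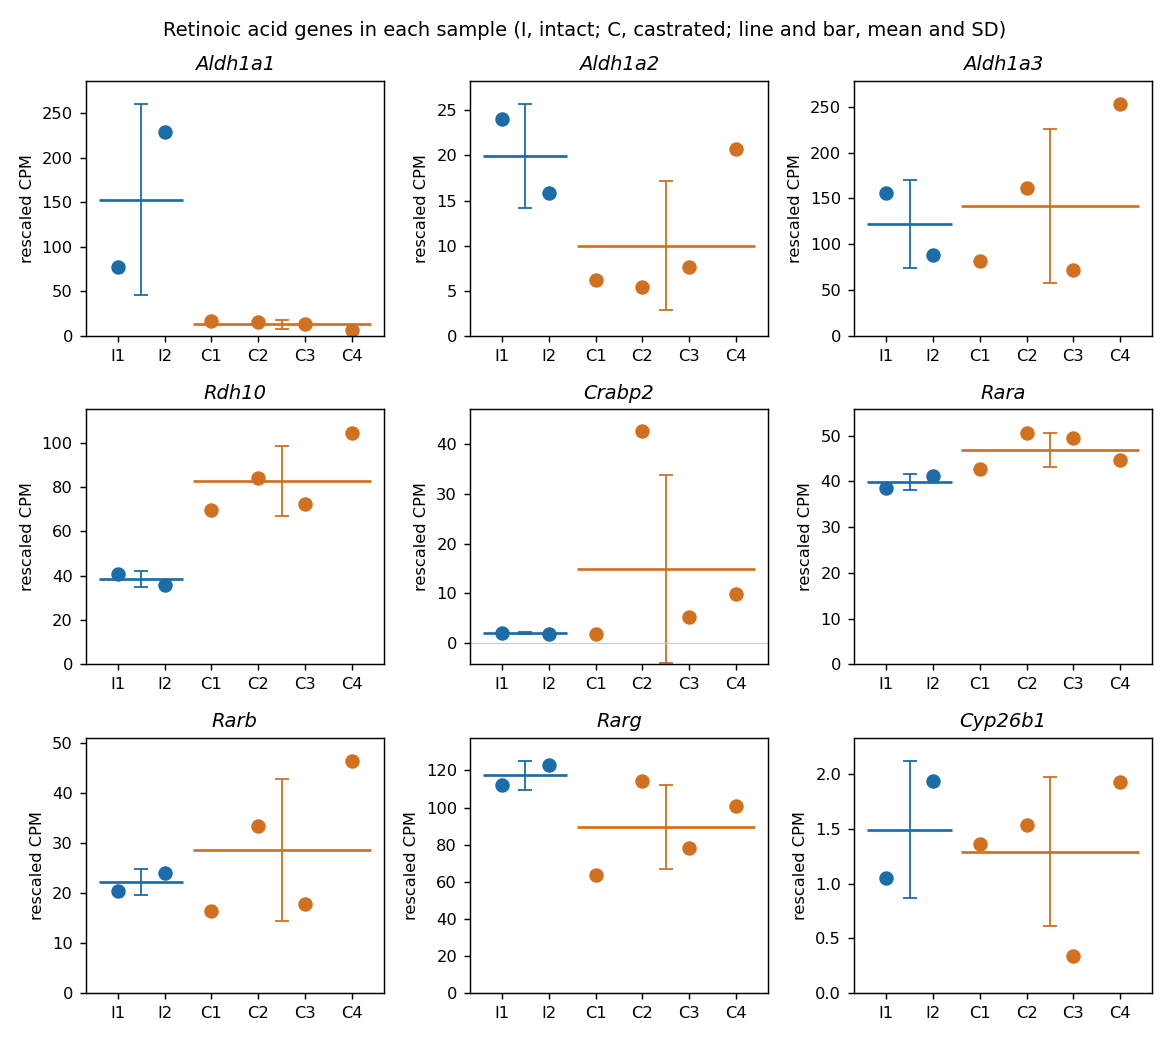
Each panel plots 1 gene, with rescaled CPM on the vertical axis from 0 (or below it where the bar reaches there) and the samples on the horizontal axis (I, intact samples 1 and 2; C, castrated samples 1 to 4). Points are samples, and lines with bars are group means and SD. Aldh1a1 is at 6.51 to 16.7 in castrated samples against 77.2 and 229 in intact samples, and Crabp2 is high in castrated sample 2 at 42.6.

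Aldh1a1, the retinal dehydrogenase also used as a marker of stem-like cells, lies on chromosome 19 (20492715 to 20643465 in the GENCODE annotation of GRCm38). Its rescaled CPM was 77.2 and 229 in intact samples 1 and 2, and 16.7, 16.0, 12.9 and 6.51 in castrated samples 1 to 4. Both intact samples lay above every castrated sample, although the intact samples differed from each other more than any castrated pair did. The mean went from 153 ± 107 (SD, n = 2) to 13.0 ± 4.63 (SD, n = 4), a log2 difference of -3.39 ± 0.52 (SE), or 10.5-fold lower. The intact samples set the size of this difference: it was 6.09-fold without intact sample 2 and 18.0-fold without intact sample 1. The gene had 16427 reads over the intact samples and 2911 over the castrated samples.

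Aldh1a2, the dehydrogenase that makes most retinoic acid in the embryo (chromosome 9, 71215789 to 71296243), was at 24.0 and 15.8 in intact samples. In castrated samples 1 to 4 it was at 6.22, 5.48, 7.66 and 20.7. Castrated samples 1 to 3 lay below both intact samples and castrated sample 4 lay between them, so the groups overlapped. The log2 difference was -1.13 ± 0.52 with a 95% interval of -2.37 to 0.11, and -1.54 without castrated sample 4. The summed markers of endothelium, macrophages, fibroblasts and T and NK cells were also highest, among castrated samples, in sample 4. Those of smooth muscle, mesothelium and B and plasma cells were highest in castrated sample 2, and those of neutrophils and adipocytes in castrated sample 3. For 8 endothelial genes the summed level was 180 and 158 in intact, against 101, 103, 102 and 183 in castrated samples 1 to 4. That of 7 macrophage genes was 829 and 680 in intact, and 580, 565, 610 and 854 in castrated samples. Fibroblast genes, 10 in all, summed to 1812 and 1948 in intact, and to 1076, 865, 1442 and 2019 in castrated samples. Of these, Col1a1, Col1a2, Col6a1 and Lum were highest, among castrated samples, in sample 3. No marker of these lists was at 0 in all samples. In limma 0 endothelial, 0 macrophage and 0 fibroblast genes were past the threshold, with 2, 1 and 2 at an unadjusted p under 0.05; edgeR called 0 in each list, and DESeq2 called 0, 1 and 1. Their part in the difference of Aldh1a2 was not tested.

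Aldh1a3, the family member best known in adult glandular epithelium (chromosome 7, 66390890 to 66427517), did not share the order of Aldh1a1. It was at 156 and 88.2 in intact samples and at 82.1, 161, 71.997 and 253 in castrated samples 1 to 4. Castrated samples 2 and 4 were the highest of the 6, and castrated samples 1 and 3 the lowest. The intact samples lay within the castrated range, with means of 122 ± 47.8 (n = 2) and 142 ± 83.9 (n = 4), and the log2 difference was 0.09 (95% interval -1.19 to 1.37). The direction turned with 1 sample left out, from -0.32 without intact sample 2 to 0.49 without intact sample 1.

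Set against each other per kilobase of exon, the 3 dehydrogenase genes differed in make-up between the groups. Aldh1a3 supplied 56.3% and 26.4% of their summed level per kilobase in intact samples, against 74.4%, 86.1%, 72.2% and 84.0% in castrated samples 1 to 4. Aldh1a1 supplied 26.1% and 64.0% in intact samples and 14.1%, 7.96%, 12.1% and 2.02% in castrated samples. Every castrated sample had a larger Aldh1a3 share and a smaller Aldh1a1 share than either intact sample. With lengths from the longest transcript of each gene the Aldh1a3 share was 51.1% and 19.8% in intact and 70.2% to 86.1% in castrated samples. The summed level of the 3 genes per kilobase was 60.0 and 72.4 in intact samples and 23.9, 40.6, 21.6 and 65.2 in castrated samples, so castrated sample 4 lay between the intact samples and the other 3 below them.

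**Figure D2:**
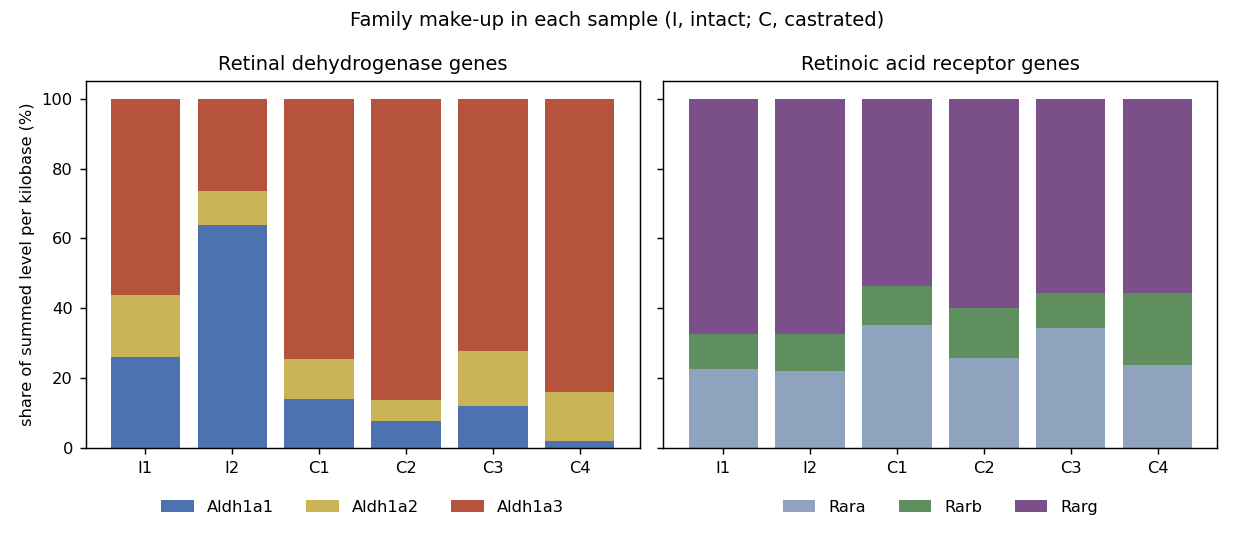
Stacked bars give the share (%) of each gene in the summed rescaled CPM per kilobase of exon of its family, for each sample (I, intact; C, castrated), with retinal dehydrogenase genes on the left and receptor genes on the right. Aldh1a3 takes 72.2% to 86.1% in castrated samples, and Rarg takes the largest share of the receptors in all 6 samples.

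Rdh10, which catalyses the first oxidation of retinol (chromosome 1, 16105774 to 16133734), differed in the other direction. It was at 40.9 and 36.0 in intact samples and at 69.6, 84.2, 72.3 and 104.5 in castrated samples 1 to 4. Both intact samples lay below every castrated sample. The mean went from 38.5 ± 3.47 (n = 2) to 82.7 ± 15.9 (n = 4), a log2 difference of 1.08 ± 0.18, or 2.11-fold higher, and it stayed between 1.94-fold and 2.24-fold with any single sample left out. The size was steadier than the call: over the 16 alternatives tried, Rdh10 was past the threshold in 7 and Aldh1a1 in 10.

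Some cell type markers were higher in castrated samples, as Rdh10 was, and basal epithelial markers were lower, as Aldh1a1 was. Basal genes, 10 in all, summed to 4378 and 4674 in intact and to 1075, 4078, 1354 and 3408 in castrated samples 1 to 4. Among castrated samples Aldh1a1 did not follow this order, at 16.7, 16.0, 12.9 and 6.51 in samples 1 to 4. All 10 basal genes had a negative log2 difference, and 3 had an unadjusted p under 0.05. Limma called 1 of them (Lamb3), edgeR 1 and DESeq2 3. Of 6 neutrophil genes 4 rose in castrated samples (limma, Benjamini-Hochberg), edgeR called 2 and DESeq2 called 6, and all 6 had an unadjusted p under 0.05. Mmp8, 1 of the 6 but not of the 4, passed the filter on low values through castrated samples alone, so nothing is read from its place in these counts. The sum of the 6 genes went from 68.4 and 30.0 in intact samples to between 202 and 353 in castrated samples. Smooth muscle genes, 8 in all, summed to 213 and 231 in intact and to 266 to 474 in castrated samples, and 7 of the 8 had a positive log2 difference. Of these 8 genes 6 had an unadjusted p under 0.05 and DESeq2 called 6, while limma and edgeR called 1 each, which in limma was Synm, the one with a negative difference. Luminal epithelial genes, 10 in all, summed to 8170 and 7937 in intact and to 6401 to 8780 in castrated samples, with 1 member past the threshold, as lower, 3 at an unadjusted p under 0.05, 1 called by edgeR and 2 by DESeq2. No marker of these lists was at 0 in all samples, and their part in the differences of Aldh1a1 and Rdh10 was not tested. Lists for T and NK cells, B and plasma cells, mesothelium and adipocytes had 7, 6, 3 and 3 tested genes, with 0 past the threshold in limma, edgeR or DESeq2 and 1, 0, 1 and 0 at an unadjusted p under 0.05.

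Crabp2, which delivers retinoic acid to the receptors in the nucleus (chromosome 3, 87948666 to 87953376), varied most of the 9 genes among castrated samples. It was at 2.15 and 1.88 in intact samples and at 1.95, 42.6, 5.24 and 9.81 in castrated samples 1 to 4. Castrated sample 1 lay between the intact samples, while the other 3 lay above both. The highest castrated sample was 21.8 times the lowest, and the log2 SD of 1.74 among castrated samples was larger than that of 99.5% of tested genes, whose median was 0.208. Between the groups the log2 difference was 1.82 (95% interval -0.63 to 4.28). It was 1.07 without castrated sample 2 and 2.44 without castrated sample 1.

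The other carriers of retinoic acid were Crabp1, a relative of Crabp2, and Fabp5, a fatty acid binding protein that can pass the acid to another receptor. Crabp1 was at 2.71 and 2.56 in intact samples and at 2.60, 0.197, 0.964 and 0.0161 in castrated samples. Fabp5 was at 58.4 and 51.9 in intact samples and at 300.2, 150, 208 and 59.0 in castrated samples 1 to 4. All castrated samples had more Fabp5 than either intact sample, but castrated sample 4 only just. Neither passed the threshold (limma with Benjamini-Hochberg adjustment over all genes, adjusted p = 0.38 and 0.292), with log2 differences of -1.47 and 1.47. Of the 2 genes 1 had an unadjusted p under 0.05, edgeR called 0 and DESeq2 called Fabp5. Without castrated sample 4 Fabp5 was past the threshold at a log2 difference of 1.92.

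Rara, the widely expressed receptor (chromosome 11, 98927818 to 98974942), was at 38.5 and 41.1 in intact samples and at 42.8, 50.6, 49.5 and 44.7 in castrated samples. The groups did not overlap, but the step was small: 39.8 ± 1.84 (n = 2) against 46.9 ± 3.75 (n = 4), a log2 difference of 0.23 (95% interval -0.03 to 0.49). Its spread among castrated samples, a log2 SD of 0.115, was at the 21.9 percentile of tested genes.

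Rarb, the receptor gene with the response element shown above (chromosome 14, 16430839 to 16819156), was at 20.4 and 24.1 in intact samples. In castrated samples 1 to 4 it was at 16.4, 33.5, 17.8 and 46.5. Castrated samples 1 and 3 lay below both intact samples and castrated samples 2 and 4 above them. The log2 difference, 0.23 (95% interval -0.80 to 1.25), turned to -0.05 without castrated sample 4. Genes on the opposite strand, Top2b among them, cover 38.4% of the exon bases of Rarb, and since no source used here states whether counting took strand into account, reads in those stretches cannot be assigned with certainty.

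Rarg, the receptor known from skin and other epithelia (chromosome 15, 102234938 to 102257517), was at 112 and 123 in intact samples and at 63.6, 114, 78.3 and 101.0 in castrated samples. Castrated sample 2 lay between the intact samples and the other 3 below both, with means of 117 ± 7.67 (n = 2) and 89.3 ± 22.7 (n = 4). The log2 difference was -0.43 (95% interval -0.99 to 0.13). Rarg gave 67.4% and 67.3% of the summed receptor level per kilobase in intact samples and 53.6% to 59.9% in castrated samples, and Rara took 22.7% and 22.0% against 23.9% to 35.2%. Rarg had the highest level per kilobase of the 3 receptors in every sample.

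The retinoid X receptors, the obligate partners of these receptors, were near level between the groups for Rxra and Rxrb and wide in range for Rxrg. Rxra was at 95.9 and 136 in intact samples and at 74.8 to 139 in castrated samples, and Rxrb at 64.2 and 64.1 against 61.1 to 69.7. Rxrg was at 2.45 and 3.42 in intact samples and at 25.4, 9.94, 22.4 and 2.40 in castrated samples 1 to 4. Castrated samples 1 to 3 lay above both intact samples and castrated sample 4 lay below them. None passed the threshold (limma, Benjamini-Hochberg adjusted p = 0.868, 0.894 and 0.388), and Rxrg did without castrated sample 4, at a log2 difference of 2.43.

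Cyp26b1, the hydroxylase that clears retinoic acid (chromosome 6, 84571414 to 84593908), was near the lower limit of what was tested. Its rescaled CPM was 1.05 and 1.94 in intact samples, from 45 and 111 reads, and 1.37, 1.54, 0.333 and 1.93 in castrated samples, from 72, 86, 19 and 120 reads. The groups overlapped, and castrated sample 3 was the lowest of the 6. The log2 difference was -0.22 (95% interval -1.36 to 0.92). Its relative Cyp26a1, a strongly retinoic acid induced gene in many cells, stayed below the filter with 24 and 23 reads in intact samples, against 2, 2, 3 and 30 in castrated samples 1 to 4.

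**Figure D3:**
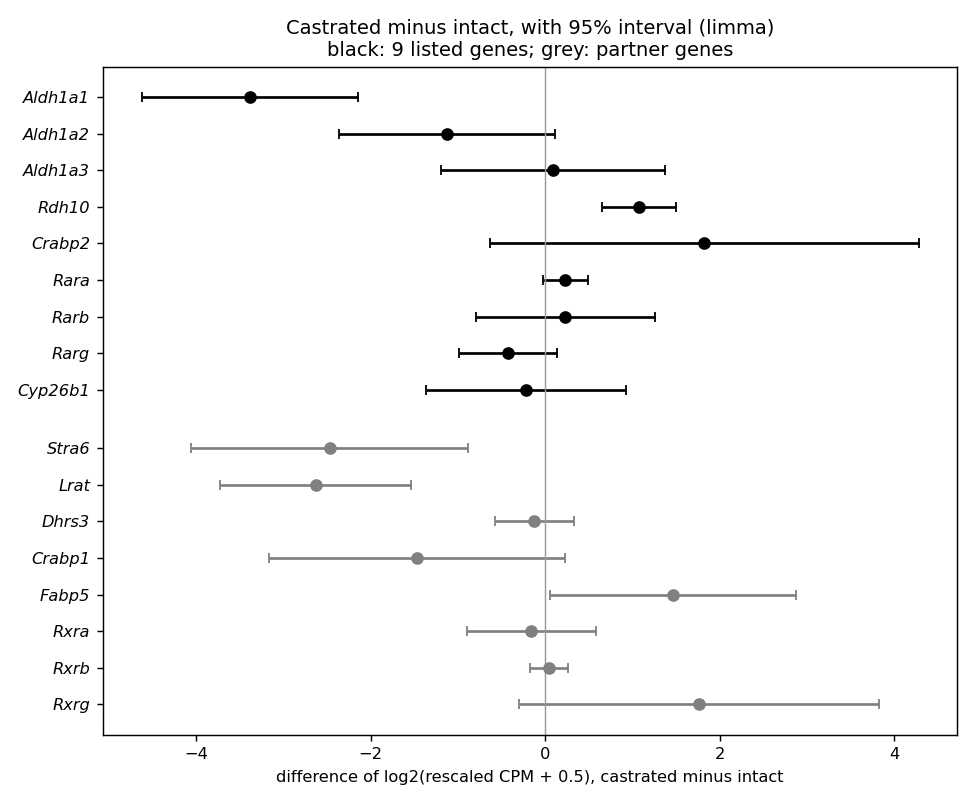
Points give the difference in log2(rescaled CPM + 0.5) between 4 castrated and 2 intact samples, with castrated minus intact on the horizontal axis and bars for the 95% interval from limma, in black for the 9 listed genes and in grey for partner genes. The interval of Aldh1a1 runs from -4.63 to -2.15 and that of Rdh10 from 0.65 to 1.503.

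Levels of different genes were ordered per kilobase of exon. In intact samples Aldh1a1 was first with a mean of 31.0 ± 21.7 (SD, n = 2), followed by Rarg at 27.5 ± 1.80 and Aldh1a3 at 26.4 ± 10.4, and the ranges of these 3 overlapped. Rdh10, Rara and Aldh1a2 followed at 9.25, 9.13 and 8.79, also overlapping, and then Rarb at 4.22, Crabp2 at 1.52 and Cyp26b1 at 0.279, each below the range of the gene before it. In castrated samples Aldh1a3 was first at 30.8 ± 18.2 (n = 4), then Rarg at 20.9 ± 5.32 and Rdh10 at 19.9 ± 3.81, again with overlapping ranges. Aldh1a1 was the eighth of the 9 at 2.64 ± 0.938, above Cyp26b1 alone at 0.242. The exon length of Aldh1a1 matters here: its longest transcript has 2358 bases and all its exons together 4937, and with the longest transcripts Aldh1a1 was at 64.9 in intact and at 5.52 in castrated samples, seventh of the 9.

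Beyond the 9, 62 genes of retinoid handling and response were listed, of which 45 were tested. Of these 1 was past the threshold as lower and 0 as higher in limma with Benjamini-Hochberg adjustment over all genes, and their median log2 difference was -0.09, against 0.00 over all tested genes. At an unadjusted p under 0.05 there were 12 of the 45, edgeR called 0 and DESeq2 called 10. Among the 12 and the 10 were Rdh16, which passed the filter on low values through intact samples alone, and Dhrs9, through castrated samples alone. Sdr16c6, also among both, was at 1.31 and 0.506 in intact samples, so its passing rested on castrated samples. Nothing is read from the place of these genes in the counts. Lrat, which stores retinol as retinyl esters, was the one past the threshold in limma. It passed the filter on low values through the 2 intact samples alone, so a lower level in castrated samples was built into its being tested, and nothing is read from its call. It was at 5.95 and 2.04 in intact samples (255 and 117 reads), and at 0.0569, 0.215, 0 and 0.419 in castrated samples 1 to 4 (3, 12, 0 and 26 reads). The log2 difference of -2.63 ± 0.46 had an adjusted p of 0.0471, which ranged from 0.00464 to 0.132 over the alternatives tried. Without castrated sample 1, 2 or 3 the call was lost, at adjusted p of 0.113, 0.118 and 0.132, and without an intact sample the gene was below the filter.

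Uptake, transport and storage genes had 9 tested of 14, with 1 lower (Lrat) and a median of -0.52. In this list 5 genes had an unadjusted p under 0.05, edgeR called 0 and DESeq2 called 4. Stra6, the cell surface receptor for retinol bound to its plasma carrier, was at 41.5 and 81.7 in intact and at 5.10, 15.04, 5.44 and 24.1 in castrated samples. Both intact samples lay above every castrated sample, yet with a log2 difference of -2.47 ± 0.66 it did not pass (limma adjusted p = 0.131), and it did without castrated sample 4, at -2.87, and in DESeq2. Oxidoreductases of retinol and retinal had 14 tested of 19, with 0 past the threshold and a median of 0.13. Dhrs3, which turns retinal back into retinol and is induced by retinoic acid, was at 330.5 and 443 in intact and at 276 to 394 in castrated samples. In this list 5 genes had an unadjusted p under 0.05, edgeR called 0 and DESeq2 called 4. The 5 and the 4 include Rdh16 and Dhrs9, each of which passed the filter through a single group. They also include Sdr16c6, whose passing rested on castrated samples. Receptor partners and cofactors had 10 tested of 10, with 0 past the threshold and a median of -0.02. Here 0 had an unadjusted p under 0.05, edgeR called 0 and DESeq2 called 1.

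Known retinoic acid responsive genes had 15 tested of 21, with 1 lower (Lrat, which is also in the storage list), 0 higher and a median of -0.55. Of these 15, 13 had a negative log2 difference and 2 a positive one. An unadjusted p under 0.05 was seen for 3 of them, edgeR called 0 and DESeq2 called 2, with Lrat among the 3 and the 2. The list is of genes induced by retinoic acid in other cells, and it shares Stra6, Lrat, Dhrs3, Cyp26a1 and Nrip1, among others, with the other lists.

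The order of the 4 castrated samples recurred across these genes, a pattern noticed after the values were seen. Castrated samples 2 and 4 both lay above castrated samples 1 and 3 for 6 of the 9 genes (Aldh1a3, Rdh10, Crabp2, Rarb, Rarg and Cyp26b1), against 23.0% of all tested genes. The same order held for 11 of the 15 tested responsive genes, among them Stra6, Tgm2, Hoxa5, Hoxb5, Meis1 and Meis2. It held for 3 of 9 tested uptake, transport and storage genes, 4 of 14 oxidoreductases, 0 of 2 carriers and 4 of 10 receptor partners and cofactors, and for 19 of all 45 tested pathway genes. It held for 7 of 10 basal epithelial markers and 5 of 8 markers of progenitor-like luminal cells. Basal markers summed to 4378 and 4674 in intact, against 1075, 4078, 1354 and 3408 in castrated samples 1 to 4, and all 10 had a negative log2 difference between the groups (median -0.92). Progenitor-like luminal markers summed to 8631 and 11895 in intact, against 12348, 15351, 12790 and 10383 in castrated samples 1 to 4. Their sum did not hold the order, nor did Prom1, Ppp1r1b and Clu. Clu was at 9832, 9800, 10267 and 6873 in castrated samples, and Ppp1r1b at 1157, 839, 925 and 569. Of those that held it, Krt4 was at 624 and 926 in intact and at 194, 2117, 301.4 and 1033 in castrated samples. Psca, a surface antigen of such cells, was at 5.98 and 98.6 in intact and at 0.152, 387, 2.86 and 63.2 in castrated samples. No marker of either list was at 0 in all samples, 1 of each was past the threshold between the groups (Lamb3 and Prom1, both lower), and the part of these cells in the order of the retinoid genes was not tested. Luminal markers held this order in 0 of 10.

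**Figure D4:**
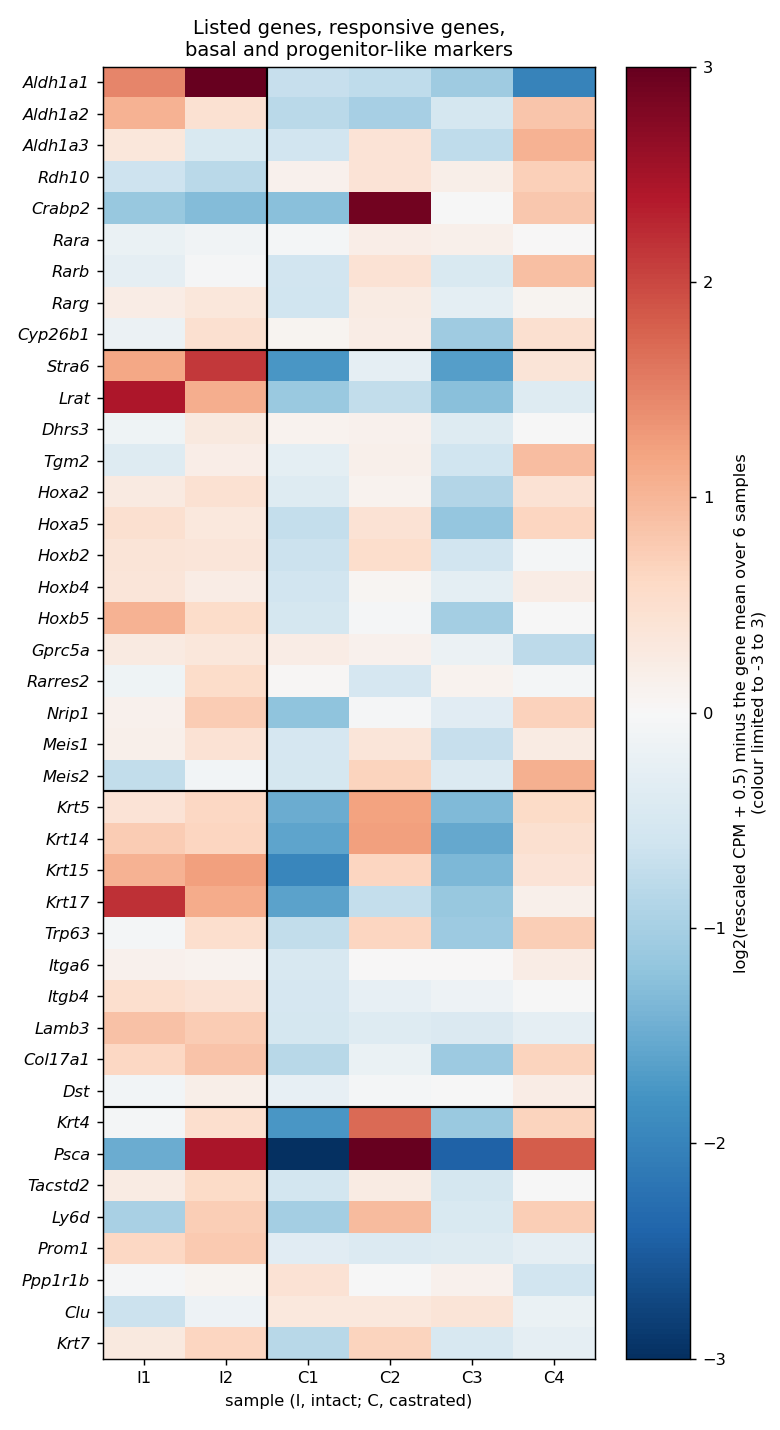
Colours give log2(rescaled CPM + 0.5) minus the gene's mean over the 6 samples, limited to -3 to 3, with genes as rows and samples as columns (I, intact; C, castrated). Blocks from top to bottom are the 9 listed genes, 14 of the 15 tested responsive genes, 10 basal markers and 8 progenitor-like luminal markers; castrated samples 2 and 4 share warmer colours over much of the lower blocks.

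Genes whose pattern over the 6 samples was most like that of a member were named for the 7 members whose highest sample was over 2 times the lowest. The measure was Pearson's r of log2 values over the 6 samples against up to 11143 genes (gene models with Gm or Rik names left out), so the highest of so many values over 6 shared samples is large whatever the genes, and r is given as a description. The genes nearest to Crabp2 were Krt6b and Tgm1, a keratin and a cross-linking enzyme of stratified epithelium, with r of 0.997 and 0.988, and Zfp266 with 0.986. Krt6b was at 0.140 and 0.227 in intact samples and at 0.266, 27.2, 1.35 and 4.25 in castrated samples, so castrated sample 2 was the highest for it as for Crabp2. Tgm1 was at 3.04 and 2.88 in intact samples and at 2.22, 24.3, 4.09 and 8.26 in castrated samples. The nearest to Aldh1a2 were Clec4a2, a lectin receptor of myeloid cells, Lyl1, a factor of blood and endothelial cells, and Pla1a, with r of 0.995, 0.995 and 0.994. Pla1a was at 30.2 and 25.7 in intact and at 12.3, 12.2, 14.3 and 29.8 in castrated samples. For Rarb they were Stk26, Zhx1 and Smo, the signal transducer of the hedgehog pathway, with r of 0.992, 0.991 and 0.991. For Aldh1a3 they were the cytokine gene Clcf1, Mynn and Usp25 (0.991, 0.98 and 0.977), for Rdh10 Rnf145, Akap7 and Zfp748 (0.997, 0.996 and 0.99), for Aldh1a1 Cyhr1, Hip1r and Ccdc71 (0.998, 0.996 and 0.99), and for Cyp26b1 Cd14, Rps4l and Vamp4 (0.979, 0.974 and 0.97). Likeness of pattern was not likeness of size: Cyhr1 went from 185 and 202 in intact to 143 to 157 in castrated samples, a far smaller step than that of Aldh1a1.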

How the data were processed

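The deposited values are CPM (read counts scaled to 1000000 per sample) per gene, made by the authors from reads aligned to mm10 (GRCm38) with TopHat2, HTSeq and edgeR, per the submitters' processing notes; settings and the use of strand are not given in the sources used here. Of the values 100% came out as whole multiples of 1 read (tolerance 1e-06). Rescaled CPM are these values over size factors found by the median of ratios. A gene was tested where 2 or more samples had CPM of 1 or more. Groups were compared with limma 3.58.1 (trend) on log2(rescaled CPM + 0.5), adjusted by Benjamini-Hochberg over 13898 genes at 0.05; fold changes on this scale understate those of low genes. edgeR 4.0.16 and DESeq2 1.42.0 on recovered reads, other filters, pseudocounts and scalings, a replicate block and leaving out each sample were alternatives. Fits were tested on 3 draws of simulated data, each with 200 changed genes and with samples drawn independently. At the 0.05 threshold 8.06% of limma calls, 6.76% of edgeR calls and 31.0% of DESeq2 calls there were false. A floor of 3 reads was 0.0507 to 0.0687 CPM, which covers counting error only. Positions and lengths came from GENCODE for GRCm38, promoters from RefSeq. The members and lists were chosen with earlier results of these data known. Genes named were the members, partners in each step of the pathway, called genes of a list, and the 3 most similar genes to a member (mean CPM at least 5). The deleted gene and some genes of the lists are not reported here by name, though list counts and sums include the latter.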

Additional observations from a re-analysis of the deposited data

Results flagged for a closer look

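Aldh1a2 was at 20.7 rescaled CPM in castrated sample 4, and the gap to the next castrated sample was 0.856 of the range of the group, so this sample stood apart from the other 3. Cyp26a1, with few reads, was at 0.483 in the same sample (30 reads) against 0.0358 to 0.0526 in the other 3, a gap of 0.962 of the range. Of 20 genes examined in this way, chance alone flags about 1 in 20.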

How the results depend on the processing

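Genes past the threshold numbered 274, with 256 and 269 at pseudocounts of 0.1 and 1, 219 at a filter of CPM at least 5, 249 on deposited CPM, 271 with TMM factors, 216 without the trend, 170 without the filter, 203 by edgeR, 1293 by DESeq2, 417 with a replicate block, and 1 to 1052 with 1 sample left out (1052 without castrated sample 4, 9 and 1 without intact samples 1 and 2). Members past it numbered 2, with 0 without the filter, 1 without the trend, 1 by edgeR and 0 to 3 with 1 sample left out; the replicate block also gave 2, but these were Aldh1a1 and Aldh1a2, with Rdh10 lost. Pathway genes past it numbered 1, with 0 at a pseudocount of 0.1, 0 at a filter of CPM at least 5, 0 on deposited CPM, 0 by edgeR, 10 by DESeq2, 2 with the replicate block (Stra6 and Fabp5, with limma adjusted p of 0.0209 and 0.0308, while Lrat was lost at 0.0932) and 0 to 11 with 1 sample left out. Leaving out a sample leaves fewer samples; otherwise the cause was not tested. The log2 difference changed sign for Aldh1a3 (-0.027 with the block, -0.32 to 0.49 with 1 sample left out, among them -0.035 without castrated sample 2 and -0.25 without castrated sample 4), Rarb (-0.049 to 0.44), Cyp26b1 (0.0053 with the block, -0.55 to 0.11, with 0.10 without intact sample 2), Dhrs3 (0.027 with the block, -0.34 to 0.080) and Rxra (-0.41 to 0.089). With longest transcripts, the mean level per kilobase over 6 samples was 25.3 for Aldh1a1, 13.2 for Rara, 8.51 for Rarb and 33.4 for Rarg, against 12.1, 10.2, 5.02 and 23.1 with all exons. Samples share only a replicate number, and the replicate block is given for that reason alone. Numbers 3 and 4 occur only among castrated samples, so the block fit compares samples 1 and 2 of each group and castrated samples 3 and 4 add nothing to it. Deviations of same-numbered samples from their group means correlated at 0.0755 and 0.226, and those of intact sample 1 and castrated sample 3 at 0.106. The deviations of the 2 intact samples mirror each other, so these values cannot show pairing. The 2 intact samples limit every difference, and Cyp26b1, Cyp26a1 and Lrat rest on few reads.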
